A study of Mus musculus with 2 samples.

Results

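The broad H3K36me3 domains of unstimulated mouse macrophages were taken as the replicated peaks of at least 6000 bp. There were 1108 of them among 56117 replicated peaks (1.97%), and they held 9.13 Mb, or 10.6% of all peak bases. They were chosen by the length of the peak in the authors' replicated list, so their lengths are given as a description, and no test was run on them. H3K36me3, trimethylation of lysine 36 of histone H3, had been mapped with ChIP-seq, the sequencing of DNA pulled down with chromatin by an antibody, in C57BL/6J macrophages grown from bone marrow (BMDM). The series held 1 group, with biological replicates 1 and 2, each prepared from 10 ng of DNA in fragments of 350 to 480 bp. Both were cells without stimulation and were listed under a single donor record, with age and sex not collected. With 1 group there was no comparison between conditions, and each measure of how a domain was called is given for both replicates.

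H3K36me3 is laid down in mammals mainly by the methyltransferase Setd2, which binds the phosphorylated tail of elongating RNA polymerase II. The mark therefore lies along the bodies of transcribed genes and is low at their promoters. Proteins with PWWP or chromo domains read it, and it is known for restraining initiation inside genes and for its ties to splicing and DNA methylation.

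Sequences of several kinds mark the extremes among the domains: stretches packed with exons and an intron that carried a domain with no exon in it. Others are short gaps between peaks of replicate 2 that also lay outside the peaks of replicate 1. All were read from the mm10 (GRCm38) assembly on the strand of the gene, 5′ to 3′. The exon-dense windows come from the domains with the most exons per kb, in Edc4 (chr8:105887107-105887406, plus strand) and Neurl4 (chr11:69907205-69907504, plus strand), and capitals mark coding exons, 2 whole exons in each window of 300 bases.
Edc4: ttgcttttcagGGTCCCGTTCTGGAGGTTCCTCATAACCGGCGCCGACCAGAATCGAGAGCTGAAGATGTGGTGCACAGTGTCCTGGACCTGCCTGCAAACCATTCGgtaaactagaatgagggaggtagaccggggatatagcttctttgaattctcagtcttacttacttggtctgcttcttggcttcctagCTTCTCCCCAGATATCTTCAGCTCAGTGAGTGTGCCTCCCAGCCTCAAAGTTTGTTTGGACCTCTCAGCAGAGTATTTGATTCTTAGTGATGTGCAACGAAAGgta
Neurl4: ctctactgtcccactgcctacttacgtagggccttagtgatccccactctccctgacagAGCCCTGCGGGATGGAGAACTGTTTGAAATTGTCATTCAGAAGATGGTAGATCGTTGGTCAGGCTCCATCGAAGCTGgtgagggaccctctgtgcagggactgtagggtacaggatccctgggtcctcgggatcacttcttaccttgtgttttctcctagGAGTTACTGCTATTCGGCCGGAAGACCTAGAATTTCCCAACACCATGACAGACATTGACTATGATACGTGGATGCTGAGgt

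The intronic window is the middle of the longest domain of a coding gene that held no exon base, in Tex264 (chr9:106668544-106668843, minus strand). Capitals mark repeat bases as the assembly masks them, 46 of 300.
Tex264: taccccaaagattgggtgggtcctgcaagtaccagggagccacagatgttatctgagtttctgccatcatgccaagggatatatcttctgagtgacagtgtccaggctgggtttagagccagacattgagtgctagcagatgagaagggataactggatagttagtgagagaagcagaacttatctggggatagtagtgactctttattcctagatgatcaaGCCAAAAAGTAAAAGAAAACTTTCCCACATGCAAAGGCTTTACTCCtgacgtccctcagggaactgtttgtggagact

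The gaps are from 3 long domains that had an intronic gap of at most 300 bp uncovered in both replicates, in Atp6v0a1 (chr11:101039657-101039718, plus strand), Sart3 (chr5:113756974-113757050, minus strand) and Fgd3 (chr13:49283131-49283206, minus strand). Capitals again mark repeat bases, 52 of 62 in Atp6v0a1, 0 of 77 in Sart3 and 48 of 76 in Fgd3.
Atp6v0a1: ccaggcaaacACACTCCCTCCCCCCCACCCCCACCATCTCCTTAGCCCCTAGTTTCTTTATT
Sart3: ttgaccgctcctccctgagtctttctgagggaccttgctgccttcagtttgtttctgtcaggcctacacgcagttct
Fgd3: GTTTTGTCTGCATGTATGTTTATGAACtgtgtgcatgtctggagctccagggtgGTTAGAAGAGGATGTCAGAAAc

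The domains ran from 6004 to 26007 bp, with a median of 7402 bp and quartiles of 6563 and 9079 bp. There were 191 of 10 kb or more, 24 of 15 kb or more and 4 of 20 kb or more, so most lay close to the limit. The members just inside it were in Psmd1 (6004 bp), Lgmn (6005 bp) and Raver1 (6005 bp), and the peaks just outside it were in Stat6 (5997 bp), Fgd2 (5995 bp) and Adcy7 (5995 bp). The authors' enrichment per peak, a ratio over the background of their caller, had a median of 4.29 in the domains, with a range of 2.25 to 9.07. Each of the 1108 domains had the same coordinates in the authors' pooled list, in which the reads of both replicates were called together and in which 1108 peaks also reached 6 kb. The domains thus have the coordinates of peaks called on the pooled reads, and the replicates' own lists show them in another form. Replicate 1 held 15 peaks of 6 kb or more, the longest of 14428 bp, and replicate 2 held 626, the longest of 26667 bp. Library depth is unknown, as the lists give no counts of reads, and peak length and number can move with it. How a peak is delimited matters too, since joining replicated peaks less than 500 bp apart gave 3824 stretches of 6 kb or more.

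The longest domain lay in Abcg1, which encodes a cholesterol exporter of macrophages, and measured 26007 bp (chr17:31091843-31117849, exons and introns of its 3′ part). Iqgap1, a scaffold of the actin cortex, came next (25065 bp, chr7:80728734-80753798). Other domains among the 10 longest were in Atp6v0a1, a subunit of the vacuolar proton pump (19544 bp), and in Dync1h1, the heavy chain of cytoplasmic dynein (19520 bp). Plcg2, a phospholipase downstream of immune receptors (18553 bp), Rnf213, an interferon-inducible ubiquitin ligase (18349 bp), Rasgef1b, an exchange factor for Ras-family proteins (18346 bp), and Sart3, a recycling factor of the spliceosome (18227 bp), were also among them. Lysosomal, cytoskeletal, signalling and interferon genes thus stood side by side at the top, and the maps of 6 host genes show that the domain filled the 3′ part of Abcg1, while Dync1h1 held 4 domains from 21.4% of the gene to past its end.

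**Figure D1:**
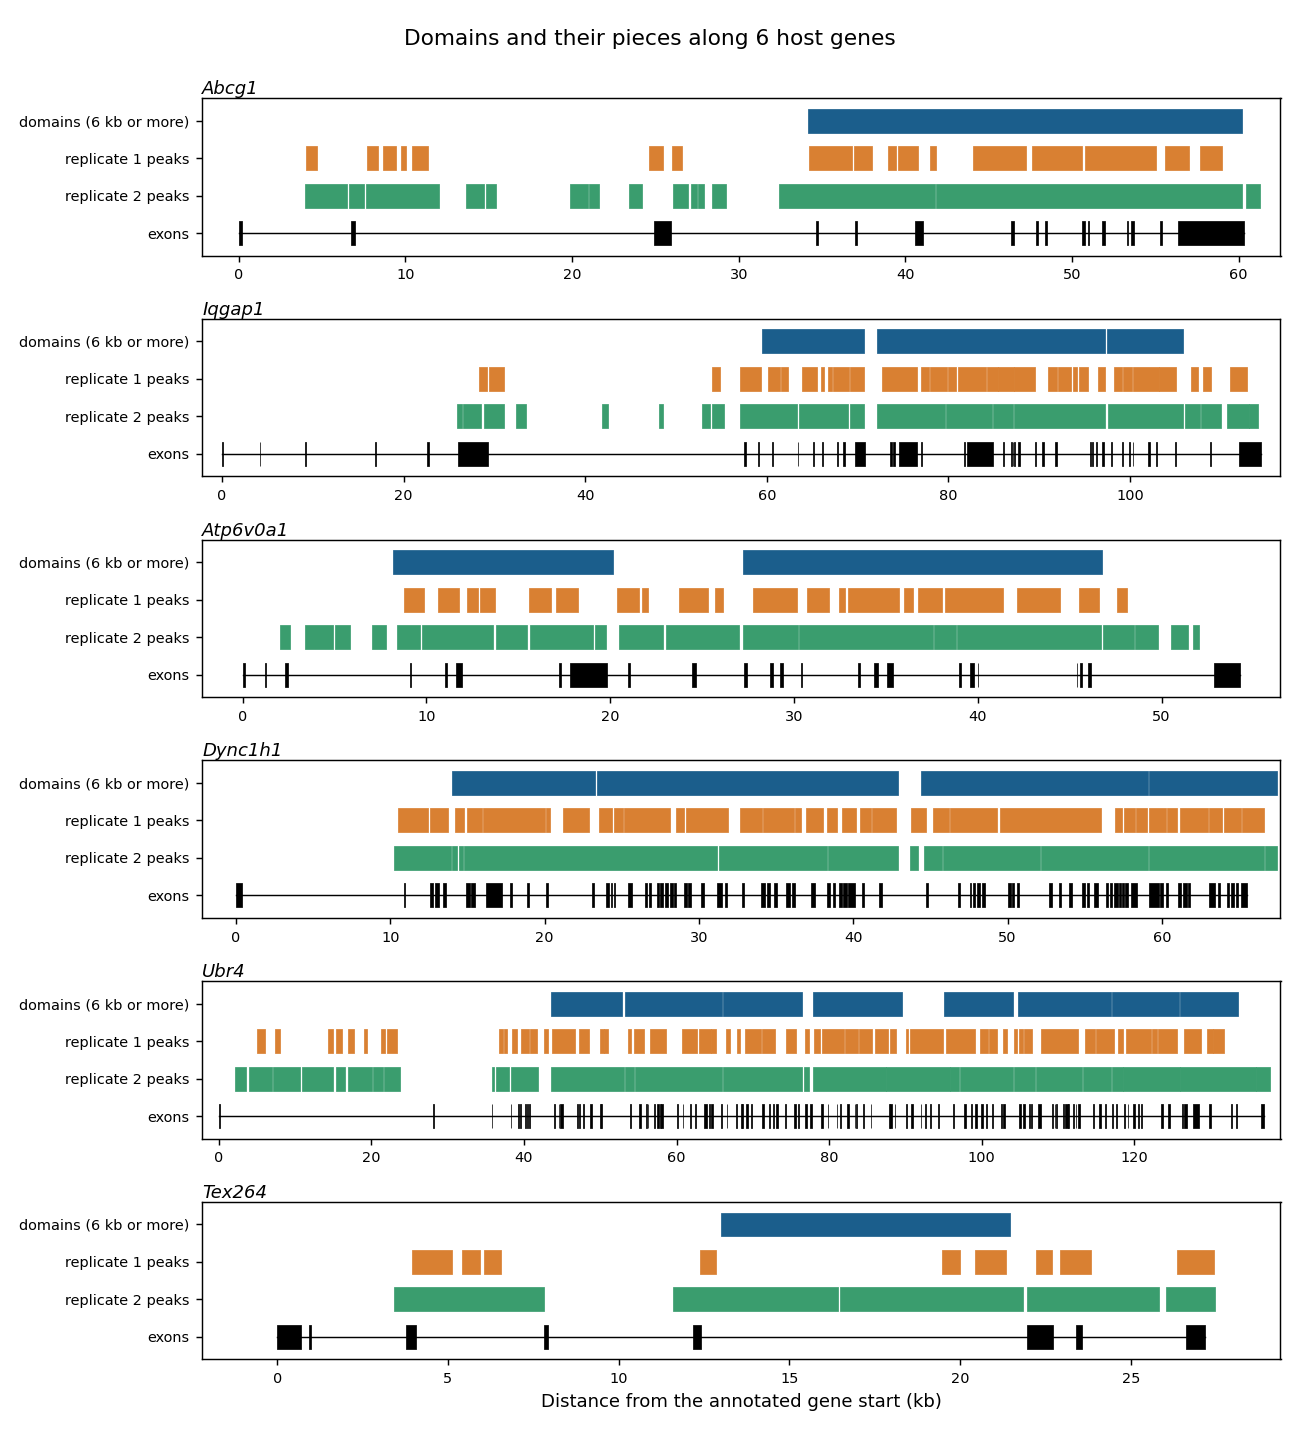
Domains of 6 kb or more (blue), peaks of replicate 1 (orange), peaks of replicate 2 (green) and exons (black) along 6 host genes, drawn in kb from the annotated gene start in the direction of transcription. The 19520 bp domain of Dync1h1 is 13 pieces in replicate 1 and 3 in replicate 2, Ubr4 carries 8 domains, and the domain of Tex264 lies between exons.

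A coding gene was taken to carry a domain when at least 3000 bp of a single domain lay in its body. By that measure 935 of 21951 coding genes carried a domain (4.26%), or 932 of 16882 genes of 6 kb or more (5.52%), which is the background for the gene lists that follow. With at least 50% of the gene body required under a domain it was 150 genes. Almost all domain sequence was genic: 98.3% of domain bases were inside coding genes, and 964 domains lay wholly within them. The shorter replicated peaks were close to this, with 97.8% from 3 to 6 kb, 96.9% from 1 to 3 kb and 96.0% under 1 kb. The coding gene over most of a domain is called its host, and 1103 domains had a host, 887 genes in all. Host genes were long and rich in exons, with a median length of 37.2 kb and a median of 16 exons in the longest coding transcript. Other coding genes with a replicated peak had medians of 24.7 kb and 9 exons, and those with no replicated peak had medians of 11.8 kb and 5 exons. The length rule bears on this directly, since a gene under 6 kb can hardly hold a domain: 0.0592% of genes under 6 kb carried a domain. The share was 1.21% from 6 to 10 kb, 4.72% from 10 to 20 kb, 7.16% from 20 to 50 kb, 7.75% from 50 to 100 kb, 6.96% from 100 to 200 kb and 4.21% at 200 kb or more. Among genes that had a replicated peak at all, the share went up through every class, to 16.3% at 200 kb or more.

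Most hosts had a single domain (748 of 887), 96 had 2, 26 had 3 and 17 had 4 or more. Ubr4, a very large ubiquitin ligase, had 8 domains that summed to 81.7 kb, or 59.6% of the gene, between 31.8% and 97.5% of its length. Dock2, the Rac exchange factor of blood cells, also had 8, but they covered 12.1% of its 557 kb and fell into separate stretches. Of these, 3 lay between 10.3% and 18.1% of the gene and 5 between 86.2% and 98.1%, with nothing of this length in the long middle. Rnf213 was covered nearly end to end, with 6 domains over 81.6% of the gene. Wdfy3, an autophagy scaffold, Trrap, a scaffold of histone acetyltransferase complexes, and the receptor gene Notch2 had 6 domains each, over 25.9%, 54.4% and 31.8% of the gene. Dync1h1 had 4 over 76.1%. Neighbouring domains of a host were a median of 4083 bp apart, but 56 of 216 such pairs were separated by under 500 bp, so some hosts with several domains carry what is nearly a single stretch.

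The gene lists, whose members were chosen with earlier results of these data known, are read against that background. Of 40 interferon-stimulated genes, 20 carried a domain (50%, against 4.26% of all coding genes). They included Rnf213 and Ifih1, a sensor of double-stranded RNA (12629 bp), as well as Stat2, a transcription factor of interferon signalling (10854 bp), Mx1, an antiviral GTPase (9171 bp), and Oas2, an oligoadenylate synthetase (9688 bp). Among 40 cytoskeletal linkers and motors, 17 carried a domain, with Iqgap1, Dync1h1 and the actin bundler Lcp1 (12926 bp) longest. Among 40 splicing genes the count was also 17, led by Prpf8 (15093 bp), Prpf4 (12875 bp) and Snrnp200 (11721 bp), all parts of the spliceosome. The lysosome and phagosome list had 14 of 40, among them Atp6v0a1 and Psap, the precursor of the saposins (12059 bp).

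Macrophage identity genes gave 13 of 40, led by Sirpa, the receptor for CD47 (17033 bp), Inpp5d, the lipid phosphatase SHIP1 (13833 bp), and Dock2 (12916 bp). Adgre1, which encodes F4/80 (10087 bp), and Csf1r, the receptor for colony-stimulating factor 1 (9200 bp), were also among them. The count includes Cx3cr1 through a domain whose host is Wdr48, a gene on the other strand that overlaps the long annotated record of Cx3cr1 (domain of 6750 bp). Of the 40, 34 are 6 kb or longer and 6 had no replicated peak. Translation and tRNA charging gave 10 of 39, and transcription and elongation 10 of 41. The first was led by Cars (10874 bp), and the other included Polr2a, the largest subunit of RNA polymerase II (9358 bp). Among writers, readers and erasers of H3K36 methylation, 5 of 33 genes carried a domain: the PWWP-domain genes Glyr1 (8585 bp), Brd1 (8419 bp) and Brpf3 (6830 bp), the DNA methyltransferase gene Dnmt3a (6886 bp) and the elongation factor gene Supt6 (8231 bp). Supt6 is counted in the transcription list as well.

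For inflammatory signalling, the Toll-like receptor and NF-κB list gave 5 of 40 members. They were the NF-κB subunit genes Relb (8397 bp) and Nfkb1 (7971 bp), Tnip1, an inhibitor of the pathway (8372 bp), the kinase partner Tab1 (6430 bp) and the adaptor Traf3 (6217 bp). In the primary response to lipopolysaccharide (LPS), 2 of 32 genes carried a domain (6.25%). These were Plek, which encodes pleckstrin (6802 bp), and Nfkbiz, an atypical inhibitor of NF-κB (6333 bp). Of the 32 genes, 25 had no replicated peak in these cells without stimulation. Only 11 of the 32 are 6 kb or longer, and 18.2% of those carried a domain, against 5.52% of all coding genes of that length. Zinc finger genes named Zfp gave 19 of 365 (5.21%), close to all coding genes. Marker lists of other cell types gave 0 of 20 B cell, 0 of 20 neutrophil and 0 of 22 fibroblast genes. The neuron and hepatocyte lists gave 0 of 24 each. The T cell list gave 1 of 24 (4.17%), the co-stimulatory receptor gene Cd28 (7452 bp). Members of 6 kb or longer numbered 15, 10, 19, 22, 21 and 20 in that order. With 4.26% of all coding genes as background, lists of this size would hold few carriers anyway, so these counts do not set them apart. In the same lists 18 of 20, 19 of 20, 21 of 22, 23 of 24, 23 of 24 and 22 of 24 genes had no replicated peak of any length. Of all coding genes, 13610 of 21951 had none. The bar chart of the lists sets these shares beside that of all coding genes.

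**Figure D2:**
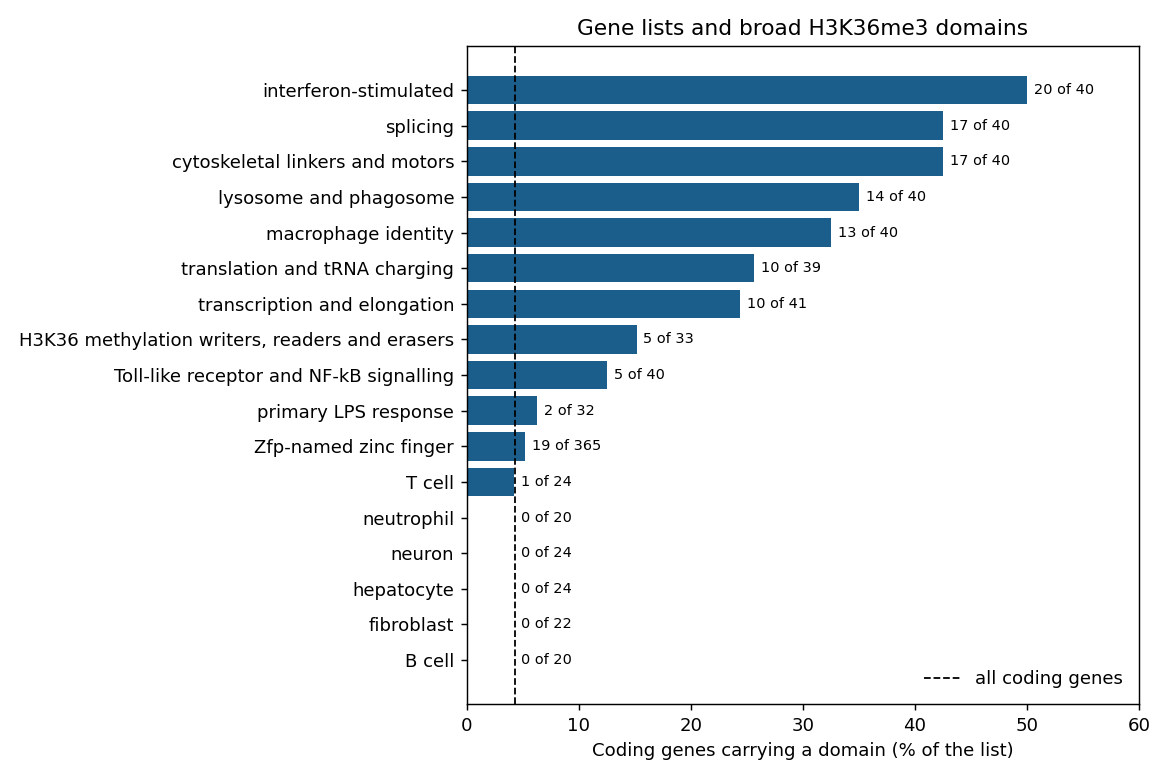
Share of each gene list that carries a domain of 6 kb or more (bars, % of the coding genes found), with the number of members beside each bar. The dashed line is the share of all coding genes, 4.26%, and the interferon-stimulated list reaches 50%.

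The chromosomes differed in how many domains they held. Chromosome 5 had 113, or 8.97 per 100 coding genes, the most by either measure. Chromosome 11 had 104, or 6.35 per 100 coding genes, below chromosome 16 (6.93) and chromosome 12 (6.69). The X chromosome had 1 for 948 coding genes, and the Y chromosome had 0. The X-linked domain, of 6950 bp (chrX:152268504-152275453), lay at the 3′ end of Kdm5c, a histone H3K4 demethylase that is known in the mouse to escape X inactivation. Of the 5 longest replicated peaks on the X chromosome, 3 were in Kdm5c (6950, 5793 and 3508 bp), and the others were in Mid1 (3766 bp) and in Eif2s3x (3453 bp), a translation factor gene also known to escape. The X chromosome held few peaks of any length, 387 in all, and 0.258% of them were domains, against 1.97% of all replicated peaks. The sex of the animals was not collected, so the number of X chromosomes per cell is not known.

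Some domains spread over several genes, with at least 1000 bp in each of 2 coding genes (69 domains) or of 3 (7 domains). Where there were 2 genes, the pair was convergent in 47, tandem in 10, nested in 12 and divergent in 0. Genes that face each other tail to tail thus made up most of these pairs, and Gas6 with Tmem255b was the longest (16836 bp). No background for the orientation of neighbouring coding genes is given here. At 5 places no coding gene underlay the domain. These were at Mx2 (10213 bp) and Oas1b (6504 bp), which are antiviral genes annotated as polymorphic pseudogenes, at the pseudogene Gm8995 (8267 bp), at the Trerf1 processed transcript (6848 bp) and at a stretch 1906 bp from Alox5ap (6502 bp). The first 2 are interferon-induced genes that the annotation does not count as coding in this strain.

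Within their hosts the domains sat toward the 3′ end. A domain started at a median of 57.4% of the gene (quartiles 36.1% and 76.5%) and ended at a median of 86.2%, and the midpoint of 891 of 1103 (80.8%) was beyond the middle of the gene. In distance, the median start was 24.1 kb from the gene start. Only 26 domains started within 2000 bp of it, and 1 within 1000 bp, in Zfp869. The replicates' own lists followed the same course along the hosts, as the profile shows. In the first 10% of the gene 0.725% of the sequence was under domains, 1.36% under peaks of replicate 1 and 5.15% under peaks of replicate 2. Between 70% and 80% of the gene, where domains were densest, these shares were 49.2%, 39.7% and 74.6%. In the last 10% they were 35.5%, 33.5% and 69.8%, lower than just before it in all 3.

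**Figure D3:**
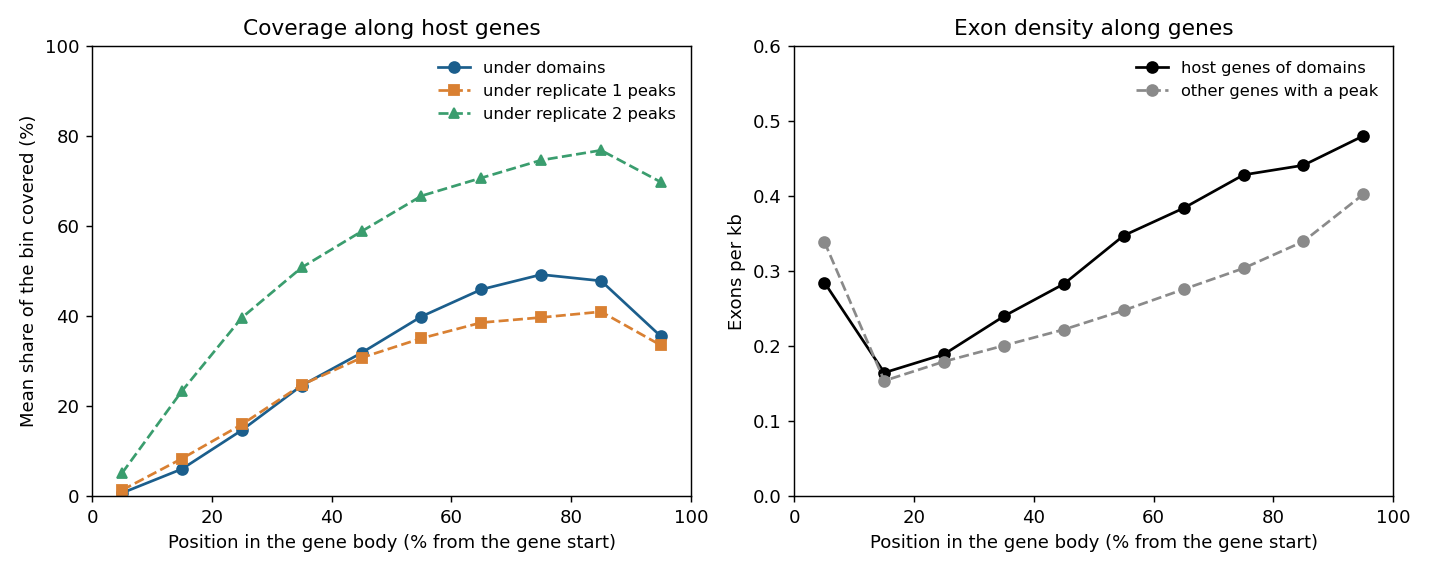
Left, mean share of each 10% bin of the host genes that lay under domains, replicate 1 peaks and replicate 2 peaks, from the gene start to the gene end (%). Right, exons per kb in the same bins, for the host genes of domains and for other coding genes of at least 6 kb with a replicated peak; domain coverage is highest in the eighth bin, at 49.2%, and exon density in the last.

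The upstream edge usually lay deep in the gene. In the longest coding transcript, 802 of 1103 edges (72.7%) were in the third intron or later, 132 in intron 2, 90 in intron 1 and 71 in an exon. The intron that held the edge had a median length of 2.68 kb, against 0.609 kb for the 5819 introns wholly inside domains and 1.06 kb for all introns of host genes. A long intron takes more edges by its size alone, and the intron base in the middle of the hosts' intron sequence lies in an intron of 9.48 kb, longer than the edge introns. At the other side, 939 domains ended before the annotated gene end, at a median of 9.01 kb from it, and 164 (14.9%) ran past it, by a median of 782 bp. The furthest was 4616 bp, past Serinc3, followed by 4441 bp past Itm2b and 4030 bp past Edc3. In 50 of the 164 the sequence past the end met another coding gene.

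A single domain covered a median of 17.5% of its host, and 14 genes were covered by 80% or more. The most complete were Zfp869 (100%), Zfp110 (90.6%), Fbxw17 (89.0%) and the proteasome gene Psmc4 (87.9%), all short hosts of 4393 to 15917 bp. Zfp869 differed in position too: its domain began 202 bp upstream of the gene and ended 1880 bp past it. Zfp genes also led by enrichment, with 9.07 at Zfp263 and 8.17 at Zfp90, and Nrros, a macrophage regulator of reactive oxygen species, between them at 8.41. The 19 Zfp genes with a domain had a median enrichment of 5.96, against 4.29 for all domains. The exonic share of these domains varied, at 23.8% in Zfp110, 24.6% in Zfp869, 41.8% in Zfp263 and 87.0% in Zfp90. Over all domain bases it was 23.9%. In Zfp646 93.0% of the domain was exon, but it also lay over Prss53 and Gm21974, and exons of all coding genes are counted. Genes of this family are known for a long last exon that encodes the finger array.

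Exons were dense under the domains. Domains held 6654 exons, 0.729 per kb, and the rest of the same host genes held 0.250 per kb, a ratio of 2.92. Exonic bases made up 23.9% of domain sequence and 10.1% of the rest of the hosts. Gene by gene the domains had more exons per kb than the rest of the gene in 721 of 886 hosts (81.4%), with medians of 0.643 per kb under domains and 0.367 per kb in the rest. The pooled values weight hosts by their length, and the medians do not. Leaving out the first 20% of each gene put the rest at 0.259 per kb, close to the value with it. From the 15 long peaks of replicate 1 alone the pooled ratio was 1.70, and from the 626 of replicate 2 alone it was 3.24. Exon density also climbs along the hosts as such, to 0.480 per kb in the last 10% of the gene, and the domains lie where it is high.

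Among replicated peaks, exon density went with length: 0.729 per kb in the domains, 0.650 from 3 to 6 kb, 0.564 from 1 to 3 kb and 0.480 under 1 kb. The exonic share did not follow that order, at 23.9%, 25.7%, 23.9% and 20.0%. The domains had more exons per kb but fewer exon bases per counted exon, 327, against 395 from 3 to 6 kb, 424 from 1 to 3 kb and 418 under 1 kb. An exon cut by a peak edge adds bases even where its midpoint lies outside, so this is not a measure of exon length. GC content moved along with length as well, at 47.5%, 46.1%, 44.8% and 43.8%, and its part in these values was not tested. Most of a domain was still intron, 74.5% of bases, with 12.2% coding sequence, 11.6% other exon and 1.68% outside coding genes. The plot of exon density shows the 4 length classes and the host genes one by one.

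**Figure D4:**
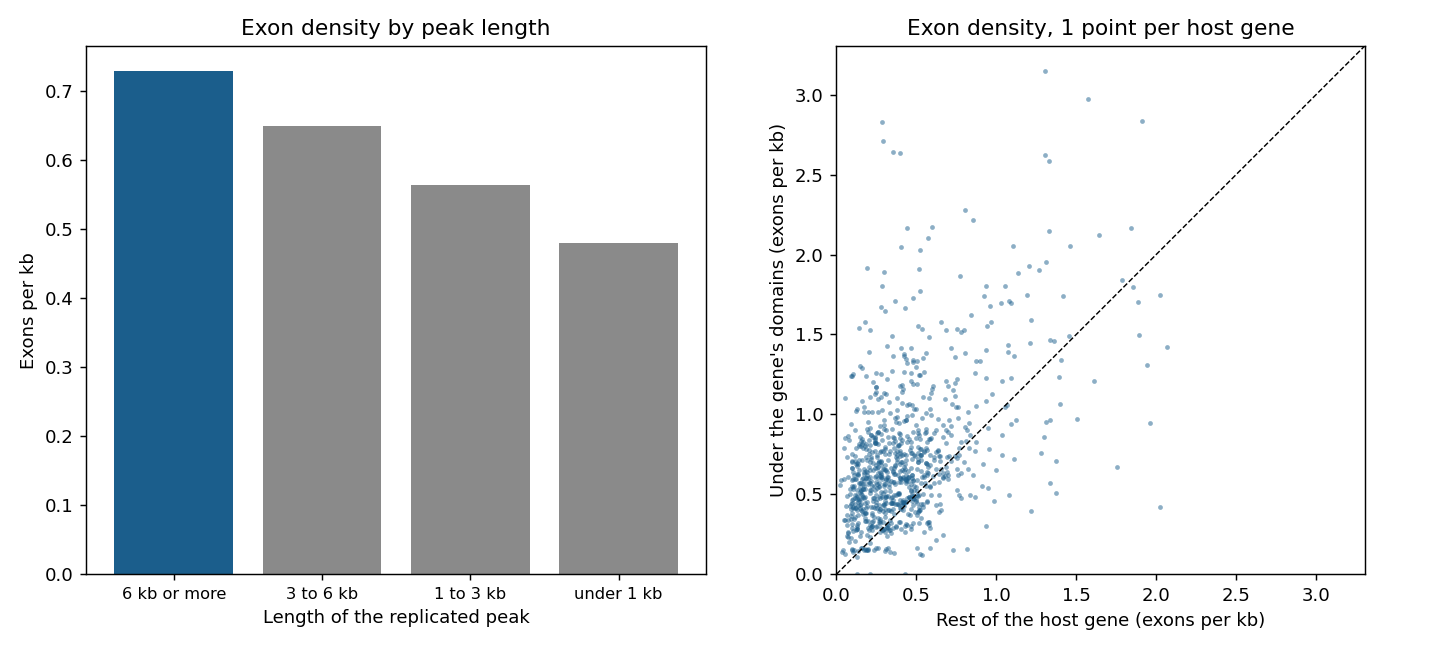
Left, exons per kb in domains of 6 kb or more (blue) and in shorter replicated peaks (grey). Right, exons per kb under the domains of a host gene against the rest of that gene, with 1 point for each of 886 hosts and a dashed line of equal density; 721 points lie above the line.

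Single domains varied widely around a median of 5 exons. The densest were in Edc4, a scaffold of mRNA decapping (20 exons in the 6354 bp of chr8:105884322-105890675, 3.15 per kb), and Neurl4 (2.97 per kb), whose windows are printed above, and in Dgkz, a diacylglycerol kinase (2.71 per kb). Stab1, a scavenger receptor of macrophages, had the most exons, 38 in 17787 bp, followed by Fasn, the fatty acid synthase (35), and Lrp1, an endocytic receptor (33). At the other end, 12 domains held no exon base, of which 5 were the domains with no coding gene. The longest of the other 7 was the 8466 bp domain of Tex264 (chr9:106664461-106672926), a receptor for autophagy of the endoplasmic reticulum. Domains thus occurred with no exon at all, and few exons did not always mean little exon sequence: in Plec, which encodes the linker plectin, a single exon made up 97.9% of a 6330 bp domain. In all, 119 domains were at least 50% exon.

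The domains were broken up differently in the replicates. In replicate 1 a domain was met by a mean of 3.96 pieces, that is separate peaks of that replicate, with a median of 4 and a maximum of 13. In replicate 2 the mean was 2.44, the median 2 and the maximum 7. Replicate 1 had more pieces in 768 domains, replicate 2 in 154, and 186 had the same number. This order holds for the domains as the authors drew them: in the 3824 stretches made by joining replicated peaks under 500 bp apart, the mean was 4.38 pieces in replicate 1 and 4.60 in replicate 2. The pieces covered 57.5% of domain bases in replicate 1 and 94.8% in replicate 2, and replicate 2 covered more of the domain in 1099 of 1108. Both replicates covered 55.3% of domain bases together, and 2.95% were covered in neither. The domains have the coordinates of peaks of the pooled reads, so coverage by a replicate is no independent check of a domain. The value for replicate 1 also rests on weak peaks: with its peaks of −log10 q of at least 5 it covered 26.7%.

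The longest piece of replicate 1 in a domain had a median of 1.77 kb, or 22.6% of the domain, and that of replicate 2 had a median of 5.24 kb, or 64.7%. A domain was called whole when 1 piece covered 95% or more of it. Replicate 2 held 254 domains whole (22.9%), and replicate 1 held 1, in Znfx1, a helicase of antiviral defence (10145 bp, with a piece of 9738 bp). No domain was whole in both. The 18553 bp domain of Plcg2 was whole in replicate 2, where 1 of its 2 pieces measured 17668 bp, and replicate 1 had 10 pieces that covered 74.2% of it. Abcg1 was in 10 pieces in replicate 1 and 2 in replicate 2, Iqgap1 in 13 and 4, Atp6v0a1 in 9 and 4, Dync1h1 in 13 and 3. Gas6, Pik3ap1 and Lrp1 were also whole in replicate 2, and in 9, 7 and 6 pieces in replicate 1.

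**Figure D5:**
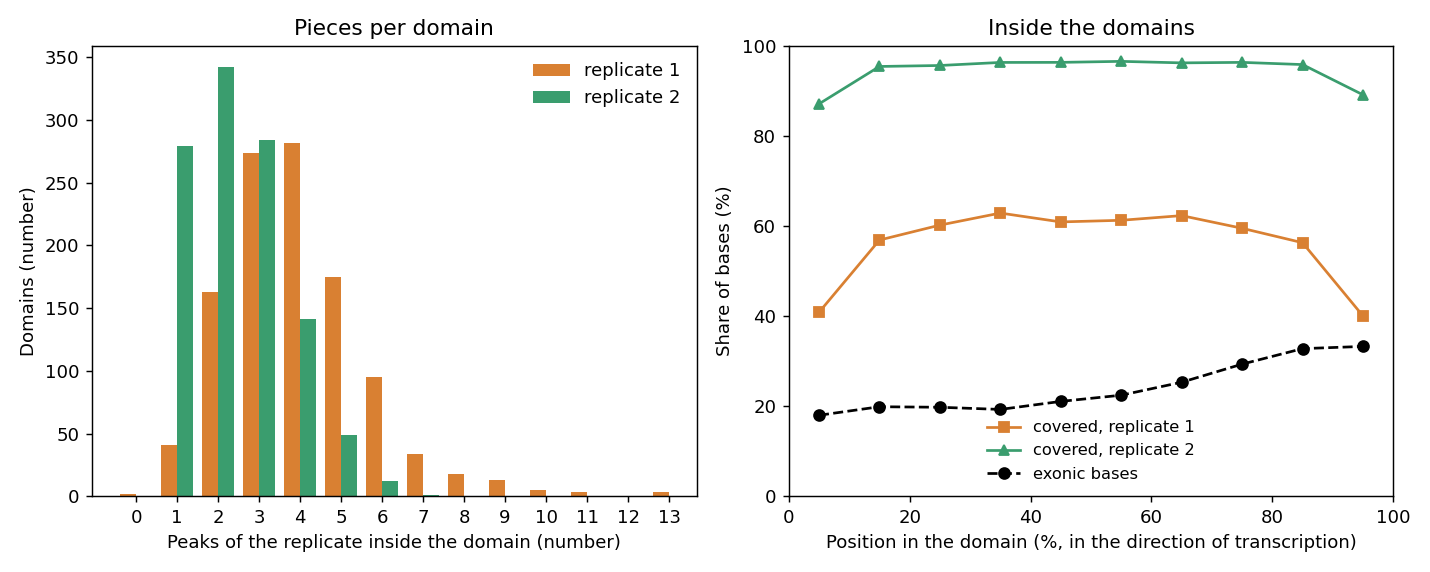
Left, number of domains by the number of peaks of replicate 1 (orange) and replicate 2 (green) inside them. Right, share of domain bases under the peaks of each replicate and share of exonic bases, along the domain in the direction of transcription (%); replicate 1 covers 40.8% of the first bin and 62.9% of the fourth.

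The breaks were short in replicate 2 and longer in replicate 1. Replicate 2 had 1595 gaps between pieces, with a median of 101 bp, and 80.9% were under 200 bp. Replicate 1 had 3277 gaps, with a median of 331 bp, and 34.3% were under 200 bp. The shortest gap was 51 bp in both replicates, and the longest were 1763 bp in replicate 2 and 6198 bp in replicate 1. Joining pieces less than 200 bp apart brought the mean to 1.28 per domain in replicate 2 and 2.94 in replicate 1, so most breaks in replicate 2 were narrow. Coverage was lowest at the edges of the domain, when each was cut into 10 bins, with 40.8% of the first, 62.9% of the fourth and 40.0% of the last in replicate 1. The same bins gave 87.1%, 96.3% and 89.1% in replicate 2.

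The gaps differed a little in sequence from the pieces. In replicate 1, gaps were 20.6% exonic and pieces 25.1%, and in replicate 2 gaps were 17.1% exonic and pieces 24.1%. Repeats made up 21.2% of gaps and 15.5% of pieces in replicate 1, and 24.9% of gaps and 17.2% of pieces in replicate 2. GC content was 41.8% in gaps and 47.8% in pieces of replicate 2, against 47.1% and 47.8% in replicate 1. The direction was the same in both replicates for all 3 features, and their part in the breaks was not tested. Of the gap bases of replicate 2, 46.2% were uncovered in replicate 1 too, beside 42.5% of all domain bases. The Atp6v0a1 gap printed above is mostly masked repeat, as is that of Fgd3, and the Sart3 gap holds none.

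Pieces became more numerous with domain length in replicate 1, from 3.05 per domain at 6 to 7 kb up to 8.38 at 15 kb or more, in step with length, since the number per 10 kb stayed between 4.57 and 4.90. In replicate 2 the number per 10 kb was 3.50 at 6 to 7 kb and 1.41 at 15 kb or more. The longest domains therefore had the fewest pieces per base in replicate 2, a number that falls with length for unbroken domains too. Enrichment went with coverage in replicate 1: the 333 domains of highest enrichment were covered to 68.0%, and the 429 of lowest to 47.1%, though both measures draw on the reads of replicate 1. Domains dense in exons, at 1 per kb or more, were whole in replicate 2 in 31.4% of 210 cases, against 19.4% of the 494 with 0.5 to 1 per kb, 22.3% of the 390 with fewer exons and 35.7% of the 14 with no exon midpoint, so the share did not follow exon density. Median GC content in the same order was 51.2%, 47.3%, 46.3% and 47.9%, and its part was not tested.

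Some domains were extreme in coverage, and a few went against the usual order of the replicates. Pwp2, a ribosome biogenesis gene, and Nfatc1, a calcium-regulated transcription factor, had domains with 0 pieces in replicate 1, although 96.7% and 98.3% were covered in replicate 2. The lowest coverage in replicate 2 was 48.5%, in Cebpz, where replicate 1 covered 15.9%. Replicate 1 covered more than replicate 2 in 9 domains, among them Rnf213 (99.5% and 99.2%), Mx1 (95.6% and 95.5%) and Vipas39 (93.6% and 85.6%). Fndc3a was cut most often in replicate 2, into 7 pieces, beside 6 in replicate 1.

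Coverage in replicate 1 also differed between the gene lists, a comparison chosen after the values were seen. The longest domains of the 20 interferon-stimulated carriers had a median coverage of 78.6% in replicate 1 (39.3% to 99.5%) and 97.4% in replicate 2 (91.8% to 100%). Over all domains the medians were 57.3% and 96.6%. Coverage of 75% or more in replicate 1 was reached by 11 of those 20, against 176 of 1108 domains (15.9%). The 2 sides are not alike, since the lists take only the longest domain of each carrier. Replicate 1 coverage went up with domain length, from 52.6% at 6 to 7 kb to 76.4% at 15 kb or more. Zfp genes had 9 of 19, lysosomal genes 5 of 14 and macrophage identity genes 4 of 13. Translation genes had 3 of 10, cytoskeletal genes 5 of 17 and splicing genes 4 of 17. None of the 10 transcription genes, 5 Toll-like receptor and NF-κB genes, 5 H3K36 methylation genes or 2 LPS response genes did. The 5 H3K36 methylation genes had the lowest median in replicate 1, 16.4%, with 97.8% in replicate 2. Their median enrichment was 4.04, against 4.77 in the interferon-stimulated domains and 5.96 in the Zfp domains, the 2 lists covered best in replicate 1. Coverage did not follow enrichment throughout. Translation and transcription genes had the same median enrichment, 4.21, and median coverages of 63.5% and 46.4% in replicate 1. The LPS response genes had a median enrichment of 3.75 and a median coverage of 49.1%. The part of enrichment was not tested.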

How the data were processed

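H3K36me3 ChIP-seq peaks of 2 biological replicates of 1 group were analysed. The authors deposited 4 peak lists on mm10: 1 per replicate and 1 of the pooled reads, whose peaks had to recur in pseudoreplicates (random splits of the reads), and the replicated list, per the deposited file descriptions. Aligner and caller: not given in the sources used here. For every peak the authors deposited a display score, an enrichment ratio, a −log10 p and a −log10 q from the authors' caller, used only to describe or filter peaks within a list.

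Genes, exons and coding sequence came from GENCODE M21 with exons merged over transcripts, and sequence from GRCm38.p6, whose chromosomes hold every peak and gene used. An exon counted where its midpoint lay. A piece is a replicate's own peak inside a domain, and GC and soft-masked repeats were counted per base. The members and gene lists were chosen with earlier results of these data known. Named genes are hosts of the longest, the most and least exon-dense and the most broken domains, of domains whole in a replicate, and the list members with the longest domain; others were chosen after their values were seen, and some genes are not reported here. Regions of a replicate are not independent samples, and no test was run. The steps were tested on simulated data. Python 3.11.15, numpy 2.4.6, pysam 0.24.0, matplotlib 3.10.9 and samtools 1.23.1 were used.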

Additional observations from a re-analysis of the deposited data

How the results depend on the processing

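The 9 results were recomputed under 67 alternatives. In 49 the value moved by less than the spread between replicates, or a count stayed within 1.5 times. In 18 it moved by more. The 49 include the pooled list, which holds the same 1108 domains and so must give the same values. The spread is the standard deviation of 2 replicates and is wide, 26.4 percentage points for coverage and 1.09 for the exon ratio. Replicate 1 coverage of 41.2% after joining replicated peaks under 500 bp apart, against 57.5%, thus counted as within it. The number of domains was 1890 at a limit of 5000 bp, 424 at 8000 bp and 3824 when peaks under 500 bp apart were joined, and each replicate's own list gave from 15 to 626. The coding genes carrying a domain were 1461, 378 and 2912 under the same settings, 13 to 542 from the lists of single replicates, and 150 when 50% of the gene body was required. The median start was 57.5% to 68.6% of the gene, and the exon ratio 1.70 to 3.24, from single replicates, the 68.6% and the 1.70 resting on the 15 long peaks of replicate 1. Pieces per domain in replicate 1 averaged 5.11 at 8000 bp. When replicated peaks under 500 bp apart were joined, the order of the replicates turned, with 4.38 pieces per stretch in replicate 1 and 4.60 in replicate 2; the cause was not tested. Joining pieces under 200 bp apart instead gave 2.94 in replicate 1 and 1.28 in replicate 2. Coverage in replicate 1 fell to 26.7% for peaks of −log10 q of at least 5. The exonic share of gaps minus that of pieces was -4.30 percentage points with the bases of both replicates pooled and -7.02 to -4.49 within single replicates. No paired analysis was possible because there is 1 group. Depth is unknown and limits every count of pieces.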

Other observations

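Replicate 2 had 173 peaks of 6 kb or more of its own that lay mostly outside the domains. They held a median of 2 and at most 4 replicated peaks each, 147 of them held 2 or more, and 94.3% of their bases were under replicated peaks, so most were stretches that the replicated list divides into shorter peaks. A few host records are extremely long and make the position of their domains in the gene hard to read: Gm20388, with 3 domains, spans 4435 kb and other coding genes such as Piezo1 and Gse1, and Fgfr2, with 1 domain, spans 2961 kb. In all, 4 domains had a host of 1000 kb or more.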
